A study of Mus musculus with 13 samples.

Results

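The genes for integrin subunits and laminin chains were compared between 6 mouse mammary tumours and 4 wild-type mammary glands. They were taken from the count table by name, as all symbols of the form Itga or Itgb followed by a subunit letter or number and all symbols of the form Lama, Lamb or Lamc followed by a number. The rule found 39 of 38279 symbols, with 28 integrin-type names and 11 laminin chains. It used no measured value. One of the 28, Itgb3bp, encodes a centromere protein and not an integrin, so 27 integrin subunits remained, and Itgb3bp is given apart.

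The tumours came from Cre-positive mice, in which Fbxw7 is excised on mating at 12 weeks of age, and the glands from Cre-negative mice that were mated at the same age. Fbxw7 encodes the substrate-binding subunit of a ubiquitin ligase. RNA was taken from whole homogenised tissue in both groups, and which promoter drives Cre is not stated in the labels used. Glands 1 to 3 came from mice of 20 weeks and gland 4 from a mouse of 40 weeks, while tumours 1 to 6 came from mice of 25, 32, 39, 19, 53 and 25 weeks. The ages of the groups overlap, while genotype and tissue state differ together and cannot be told apart.

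Laminins are trimers of an alpha, a beta and a gamma chain that polymerise into the sheet of the basement membrane, the thin matrix under epithelia and around muscle, fat, nerve and vessels. Integrins are receptors of an alpha and a beta subunit that bind laminin, collagen, fibronectin or other ligands outside the cell and talin and kindlin inside it. In the mammary gland the basal (myoepithelial) cells sit on the basement membrane, laminin-332, whose chains include Lama3 and Lamb3, and integrin alpha6beta4 join in hemidesmosomes that tie keratin filaments to it, and beta1 integrins carry signals that milk-producing cells need.

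The starts of 4 of the 12 genes that differed are shown to give their sequence context. They are 3 laminin chain genes that fell in the tumours and Itgb8, which rose. The reference table of promoters held 25 of the 39 genes and 7 of the 12 that differed. Of these 7, Itga8, Itga11 and Itgb7 are left out by choice, and their windows held none of the 3 motifs named below. Each sequence is the 250 bases before the annotated start in RefSeq (GRCm38.p6), read 5′ to 3′ on the strand of the gene, and capitals mark a GC box (GGGCGG or its complement CCGCCC).
Lamb1 (chr12:31265043-31265292, plus strand): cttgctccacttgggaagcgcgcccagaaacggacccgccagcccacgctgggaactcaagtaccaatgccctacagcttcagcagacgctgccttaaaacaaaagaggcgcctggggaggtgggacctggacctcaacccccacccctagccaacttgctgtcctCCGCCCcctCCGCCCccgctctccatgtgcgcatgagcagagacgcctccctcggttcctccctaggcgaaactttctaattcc
Lamb2 (chr9:108479612-108479861, plus strand): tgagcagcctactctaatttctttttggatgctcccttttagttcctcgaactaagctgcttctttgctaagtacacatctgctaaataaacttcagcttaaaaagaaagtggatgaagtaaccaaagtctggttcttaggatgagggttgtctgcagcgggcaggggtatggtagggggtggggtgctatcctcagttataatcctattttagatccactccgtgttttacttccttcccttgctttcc
Lama2 (chr10:27616943-27617192, minus strand): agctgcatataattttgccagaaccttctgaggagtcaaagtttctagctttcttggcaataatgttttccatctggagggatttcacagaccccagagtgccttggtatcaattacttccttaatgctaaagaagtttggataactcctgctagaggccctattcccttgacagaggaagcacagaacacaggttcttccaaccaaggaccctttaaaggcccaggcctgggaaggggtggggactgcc
Itgb8 (chr12:119238277-119238526, minus strand): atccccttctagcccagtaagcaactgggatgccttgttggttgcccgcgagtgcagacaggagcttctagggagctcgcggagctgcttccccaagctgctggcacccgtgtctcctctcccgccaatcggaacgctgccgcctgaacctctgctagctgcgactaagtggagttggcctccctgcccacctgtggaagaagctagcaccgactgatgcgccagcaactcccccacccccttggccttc
The Lamb1 window held 2 GC boxes, which began 84 and 75 bases before the start, and the other 3 windows held none. None of the 4 windows held an AP-1 motif (TGANTCA) or an E-box (CACGTG) on either strand. Over 32851 promoters of the same length, 32.7% held a GC box, 6.75% an AP-1 motif and 6.02% an E-box. The GC content was 62.0% for Lamb1 and 62.4% for Itgb8, against 43.6% for Lamb2 and 47.2% for Lama2.

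Total counts ranged from 13723065 in gland 3 to 48353114 in gland 2, and the integrin and laminin genes took between 0.0200% (tumour 1) and 0.181% (gland 2) of a library. Levels are given as CPM, the count of a gene scaled to the library total, after TMM scaling, a scaling that offsets a few very abundant transcripts. Such transcripts were salivary in tumours 1 and 6, where 18 salivary gland markers took 45.3% and 17.2% of all counts, against at most 0.0529% elsewhere. Skeletal muscle markers summed to 145587 CPM in gland 4 and to at most 14200 CPM in any other library, and T and NK cell markers to 641 and 529 CPM in glands 2 and 3 against at most 95.2 CPM elsewhere. The 10 luminal epithelial markers summed to 458 to 766 CPM in the glands and 1752 to 4084 CPM in the tumours. Fbxw7 was at 14.3, 17.8, 18.4 and 83.6 CPM in glands 1 to 4 and at 15.1 to 47.3 CPM in the tumours, so its RNA level does not check the labels. In whole tissue, fewer cells of a type and less RNA per cell cannot be told apart.

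Of the 39 genes, 37 passed the filter on low counts. Itgad and Itgb2l did not, with summed counts of 24 and 32 over the 10 libraries. A gene was called where the adjusted p of edgeR's quasi-likelihood test over 20101 genes, tumour against gland, was below 0.05. In all 4 genes rose, among them Itgb4, Itgb8 and Itga8, which is 10.8% of the 37 tested genes, where 6.89% of all tested genes rose. Itga7, Lamc1, Lamb1, Lamb2, Itgb7, Itga11, Lama2 and Lama4 fell, which is 21.6%, where 8.19% of all tested genes fell. No tested gene of the group lay above every gland in all 6 tumours, against 6.54% of all genes. Itga1, Itga7, Itga11, Lama2, Lamb2 and Lamc3 lay below every gland in all 6 tumours, which is 16.2%, against 7.5% of all genes. The median log2 fold change was -0.19 over the 37 genes and 0.17 over all tested genes. It was -1.73 over the 11 laminin chains and -0.19 over the 25 tested integrin subunits. Of the 8 genes that fell, 5 were laminin chains. Under upper-quartile scaling the median of all genes moved by 0.16 and the group's calls were 6 higher and 8 lower, while over all genes the calls went from 1384 higher and 1646 lower to 1809 higher and 1313 lower. With limma-voom, whose median lay 0.10 lower, the calls over all genes were 1067 higher and 2007 lower, and those of the group 2 higher and 10 lower. Without glands 2 and 3, left out after their lymphocyte markers were seen, Itga7 and Lamb2 were the members that stayed called.

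**Figure D1:**
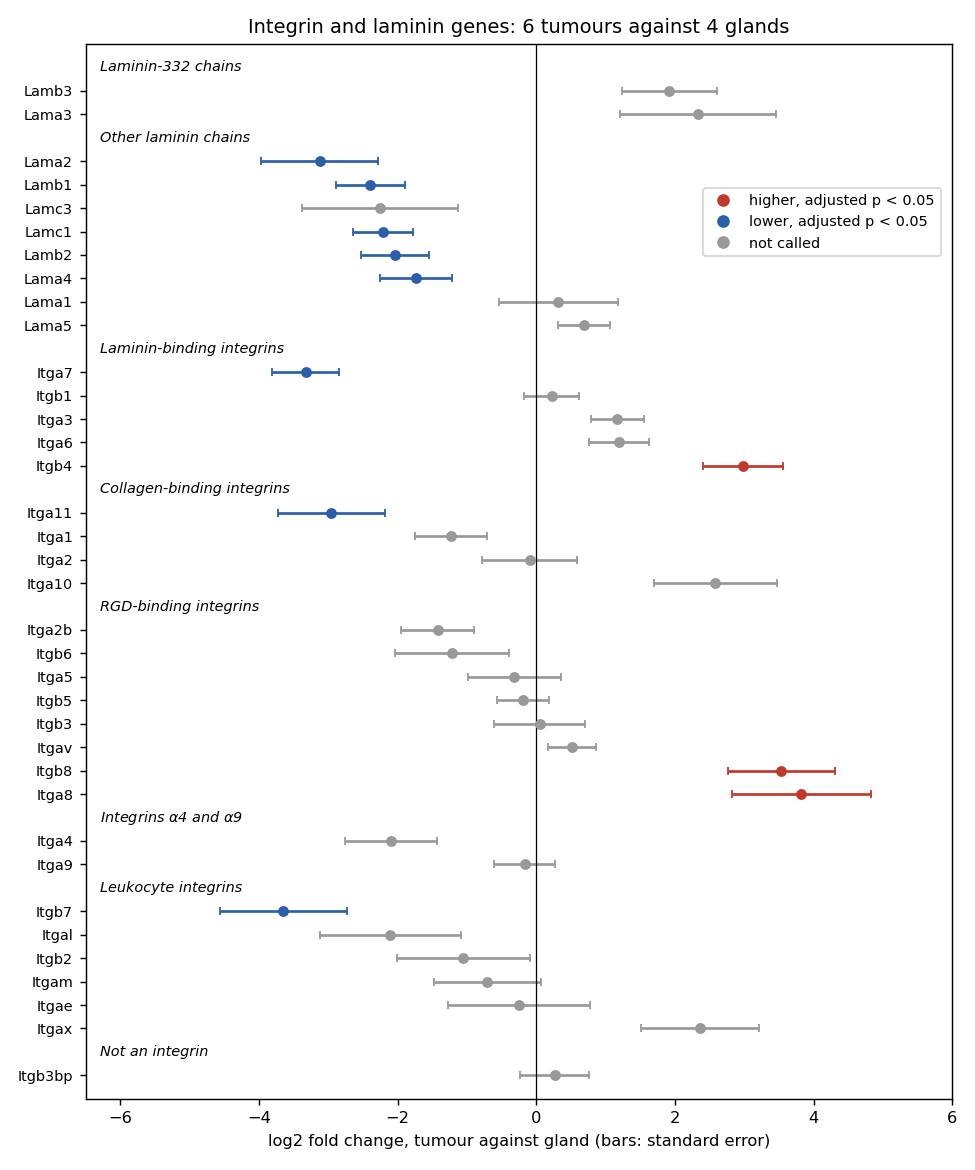
Log2 fold change, tumour against gland, of 36 of the 37 tested genes, ordered by role, with bars of 1 standard error from edgeR and coloured points for genes with an adjusted p below 0.05. The points to the far left are the leukocyte subunit Itgb7 (-3.65) and the muscle subunit Itga7 (-3.33), and the farthest right are Itga8 (3.82) and Itgb8 (3.53).

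Among the 8 laminin chains outside laminin-332, 5 fell and none rose, and their median log2 fold change was -2.13. The beta1, beta2 and gamma1 chains of common basement membranes all fell, as did the alpha2 chain of muscle, nerve and fat and the alpha4 chain of vessels and fat. Lamc1, the gamma chain of most laminins, was at 266, 180, 158 and 76.0 CPM in glands 1 to 4 and at 21.5, 26.0, 29.0, 37.9, 28.8 and 76.8 CPM in tumours 1 to 6. Tumour 6 lay just above gland 4, and the other 5 tumours were below every gland. The log2 fold change of Lamc1 was -2.21 ± 0.43 (SE; edgeR quasi-likelihood, Benjamini-Hochberg adjusted p = 0.00999).

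Lamb1, the beta1 chain, was at 194, 124, 111 and 41.5 CPM in the glands and at 17.1, 7.88, 17.1, 22, 22.5 and 47.8 CPM in the tumours. As for Lamc1, gland 4 was the lowest gland, tumour 6 the highest tumour, and 5 tumours were below every gland. It fell by 2.39 ± 0.50 on the log2 scale (SE; edgeR adjusted p = 0.0129). Lamb2, the beta2 chain found at synapses, in kidney and in muscle, was at 81.2, 47.7, 35.6 and 105 CPM in the glands and at 9.66, 34.8, 6.73, 11.8, 9.88 and 25.5 CPM in the tumours. Gland 4 was here the highest library, and every tumour was below every gland, with tumour 2 within 1 CPM of gland 3. Lamb2 fell by 2.04 ± 0.50 (log2, SE; edgeR adjusted p = 0.0226).

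Lama2, the alpha chain whose loss causes a muscular dystrophy, was at 73.2, 43.7, 33.3 and 42.9 CPM in the glands and at 9.87, 0.484, 1.09, 1.80, 2.94 and 17.1 CPM in the tumours. The groups did not overlap, and tumours 1 and 6, the salivary-rich libraries, were the highest tumours. It fell by 3.13 ± 0.84 (log2, SE; edgeR adjusted p = 0.0320). Lama4 was at 119, 83.9, 72.0 and 18.8 CPM in the glands and at 10.6, 9.12, 35.8, 34.5, 15.8 and 26.5 CPM in the tumours. Gland 4 lay inside the range of the tumours, and the fall was 1.73 ± 0.52 (log2, SE; edgeR adjusted p = 0.0458).

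The other 3 chains of this set were not called. Lamc3, a gamma chain of nerve and retina, was at 3.17 to 4.59 CPM in the glands and at 0 to 2.39 CPM in the tumours, without overlap (log2 fold change -2.26 ± 1.13, edgeR adjusted p = 0.181, and -4.21 with limma-voom, adjusted p = 0.0325). Lama5, the alpha chain of adult epithelial and vessel laminins, was at 8.46 to 12.7 CPM in the glands and 6.88 to 24.2 CPM in the tumours (log2 fold change 0.69 ± 0.38, edgeR adjusted p = 0.219). Lama1, the alpha chain of the early embryo, was at most 3.46 CPM in every library, with a log2 fold change of 0.32 ± 0.86 that took the opposite sign with limma-voom (-0.57) and without tumour 6 (-0.18). The Lamb1 and Lamc1 calls held when any 1 library was left out. The Lamb2 call was lost without gland 1 (adjusted p = 0.0671) or gland 4 (0.0524), the Lama2 call without gland 1 (0.0896), gland 2 (0.0635), gland 3 (0.0526), tumour 4 (0.0614) or tumour 5 (0.0547), and the Lama4 call without gland 1 (0.154), gland 2 (0.108), gland 3 (0.0904) or tumour 1 (0.0623), 2 (0.0773), 4 (0.0564), 5 (0.0769) or 6 (0.0578), all by edgeR. With age as a covariate Lama2 (-2.97, adjusted p = 0.0511) and Lama4 (-1.36, 0.164) were not called, and Lama4 was also not called with limma-voom (0.0671), with no filter (0.0656) or without tumours 1 and 6 (0.0801).

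Markers of tissues that make these laminins are given beside them. Adipocyte markers summed to 7909 to 32289 CPM in the glands and 36 to 1484 CPM in the tumours, and all 13 fell, while Adrb3 was at 0 in tumours 2, 3 and 4 and Lep in tumour 4. Muscle markers summed to 37.1 to 145587 CPM in the glands and 2.94 to 1026 CPM in the tumours, and 8 of 12 fell. Fibroblast markers summed to 3621 to 7920 CPM in the glands and 231 to 6694 CPM in the tumours, with 2 of 10 fallen and none at 0 in any library. Endothelial markers summed to 201 to 251 CPM in the glands and 44.2 to 449 CPM in the tumours, with 4 of 9 fallen and none at 0. The highest of these sums, in tumour 1, was carried by Pecam1 at 408 CPM, a gene at 40.1 to 103 CPM in the glands. The part of these cells in the fall of the laminin chains was not tested. In tumour 6 the fibroblast sum was inside the gland range, with Col1a1 at 1203 CPM and Dcn at 532 CPM, against 203 to 803 CPM and 1171 to 1615 CPM in the glands.

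**Figure D2:**
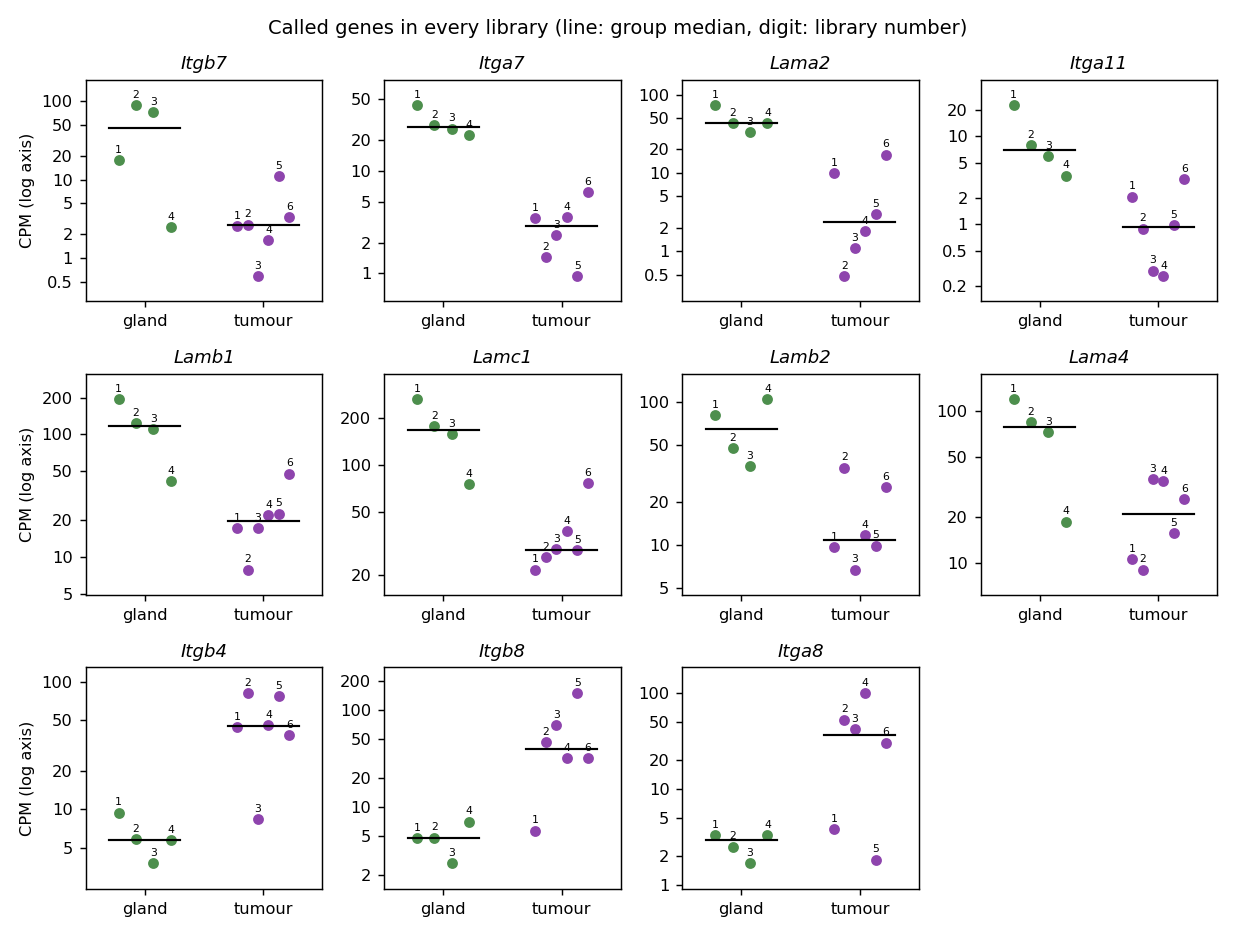
Level in every library, in TMM-scaled CPM on log axes, of 11 of the 12 genes with an adjusted p below 0.05, with a line at each group's median and digits for the library number. In Lamb1, Lamc1 and Lama4 gland 4 sits nearest to the tumours, and in Itgb7 it sits among them.

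Lamb3, the beta chain of laminin-332, the laminin of hemidesmosomes, was at 8.42, 7.71, 5.74 and 5.28 CPM in the glands and at 9.18, 75.7, 7.25, 8.13, 21.5 and 32.5 CPM in the tumours. Tumours 3 and 4 lay among the glands, tumour 1 just above them, and tumours 2, 5 and 6 well above, and the gene was not called (log2 fold change 1.92 ± 0.68, edgeR adjusted p = 0.0789). Lama3, its alpha chain, was at 3.48, 2.47, 1.28 and 2.16 CPM in the glands and at 1.58, 31.3, 0.198, 3.15, 29.6 and 5.52 CPM in the tumours. It was high in tumours 2 and 5, lowest of all libraries in tumour 3, and not called (log2 fold change 2.34 ± 1.13, edgeR adjusted p = 0.168). Without tumour 2, the highest library for both, the log2 fold change of Lamb3 was 1.22. With DESeq2, which called more genes over the whole table, Lamb3 was called (1.88, adjusted p = 0.0213).

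The make-up of the laminins within a library does not depend on scaling between libraries. For this, the CPM of each chain was divided by the length of its coding sequence in kilobases, and shares were taken within each library. Among the beta chains, Lamb3 took 4.55%, 6.54%, 5.77% and 5.29% in the 4 glands in order, and 34.8%, 73.3%, 32.2%, 27.3%, 50.8% and 40.9% in the 6 tumours. Every tumour was above every gland, tumours 3 and 4 included, whose Lamb3 levels lay among the glands. A share rises with more of a chain or with less of the others, and Lamb1 and Lamb2 both fell. Lamb1 took 66.9%, 67.2%, 71.0% and 26.5% in the glands and 4.86% to 48.4% in the tumours, and Lamb2 took 23.2% to 68.2% in the glands and 15.2% to 25.7% in the tumours, so both shares overlapped.

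The alpha chains did not move as one. Lama3 took 0.719% to 2.36% in the glands and 3.62%, 45.7%, 0.270%, 3.54%, 34.7% and 6.08% in tumours 1 to 6, so tumour 3 was below every gland. Lama4 was the leading alpha chain in tumours 1, 3, 4 and 6, at 44.7%, 89.7%, 71.0% and 53.5%, and led in glands 1 to 3 at 69.7% to 74.2%. Lama5 took 3.65% to 8.76% in the glands and 8.41% to 26.9% in the tumours, with tumour 3 inside the gland range. Thus in tumour 3 the beta3 chain had a share above every gland while the alpha3 chain had a share below every gland.

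**Figure D3:**
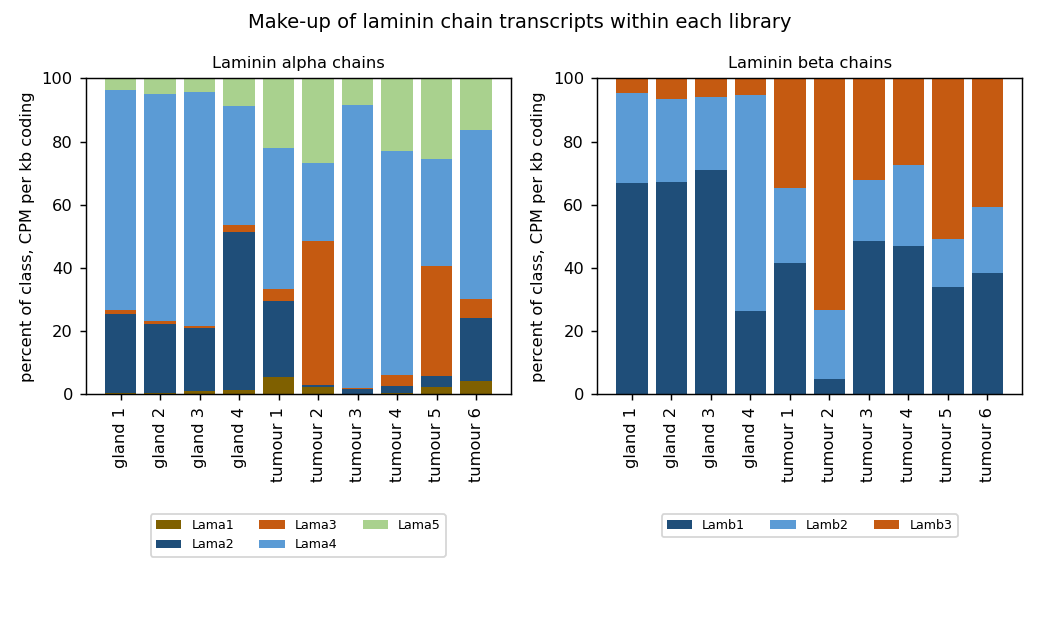
Share of each laminin chain among the alpha and the beta chains within each of the 10 libraries, in percent of CPM per kilobase of coding sequence. The Lamb3 share is larger in all 6 tumours than in any gland, while the alpha chains differ from tumour to tumour, with Lama3 large in tumours 2 and 5 and Lama4 at 89.7% in tumour 3.

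Of the 5 laminin-binding integrin subunits, Itgb4 rose, Itga7 fell and Itga3, Itga6 and Itgb1 were not called. Itgb4, the beta4 subunit of hemidesmosomes, was at 9.45, 5.89, 3.79 and 5.72 CPM in the glands and at 44.0, 81.8, 8.41, 46.0, 77.2 and 38.3 CPM in the tumours. Tumour 3 lay inside the gland range and the other 5 tumours were at least 4 times the highest gland. Itgb4 rose by 2.99 ± 0.58 (log2, SE; edgeR adjusted p = 0.0100). The call held when any 1 library was left out, with log2 fold changes of 2.80 to 3.25.

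Itga7, the alpha7 subunit of muscle and of smooth muscle around vessels, was at 43.8, 27.9, 26.0 and 22.5 CPM in the glands and at 3.50, 1.45, 2.35, 3.55, 0.949 and 6.19 CPM in the tumours. The groups did not overlap. Itga7 fell by 3.33 ± 0.49 (log2, SE; edgeR adjusted p = 0.00390), and it was the 1 gene of the 12 that stayed called under all 20 alternatives. Muscle markers, with 8 of 12 fallen, summed to 14200, 5469, 37.1 and 145587 CPM in glands 1 to 4 and to 2.94 to 1026 CPM in the tumours. Pericyte and smooth muscle markers summed to 196 to 3884 CPM in the glands and 49.5 to 309 CPM in the tumours. Of them 4 of 8 fell, and none was at 0 in any library. The highest gland sum, in gland 4, was carried by Des at 3419 CPM, and the highest tumour sum, in tumour 5, by Rgs5 at 250 CPM. The part of muscle or of pericytes and smooth muscle in the fall of Itga7 was not tested.

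Itga6, the alpha subunit that pairs with beta4 or beta1, was at 50.1, 57.6, 50.5 and 26.8 CPM in the glands and at 33.0, 96.8, 153, 104, 77.7 and 169 CPM in the tumours. Tumours 2 to 6 were above every gland and tumour 1 was among them (log2 fold change 1.19 ± 0.43, edgeR adjusted p = 0.0832), and without tumour 1 the gene was called (1.36, adjusted p = 0.0244). Itga3, whose product with beta1 binds laminin-332 and laminin-511, was at 8.59, 6.93, 5.29 and 6.17 CPM in the glands and at 10.8, 14.7, 6.06, 21.9, 16.4 and 21.1 CPM in the tumours. Tumour 3 was the only tumour inside the gland range (log2 fold change 1.17 ± 0.38, edgeR adjusted p = 0.0610), and without it the gene was called (1.34, adjusted p = 0.0204). Itgb1, the partner of most alpha subunits, was at 329, 272, 259 and 229 CPM in the glands and at 108, 234, 528, 376, 302 and 359 CPM in the tumours. Tumour 1 was the lowest and tumour 3 the highest library, and the groups overlapped (log2 fold change 0.22 ± 0.40, edgeR adjusted p = 0.711).

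Within a library, Itga6 took 49.1% to 63.0% of the 3 laminin-binding alpha subunits in the glands and 69.6% to 94.8% in the tumours, without overlap. Itga7 took 29.2% to 41.6% in the glands and 0.952% to 7.06% in the tumours, also without overlap. A share rises with more of a subunit or with less of the others. Itga7 fell in level, while Itga6 was not called with all libraries. Itga3 took 6.69% to 11.5% in the glands and 3.84% to 23.4% in the tumours, so its share overlapped. Itgb4 took 0.638% to 1.24% of the sum of Itgb1 and Itgb4 in the glands and 15.2%, 13.3%, 0.694%, 5.10%, 10.1% and 4.47% in tumours 1 to 6. Tumour 3 again lay among the glands, and tumour 1, which had a low Itgb1 level, had the highest share.

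**Figure D4:**
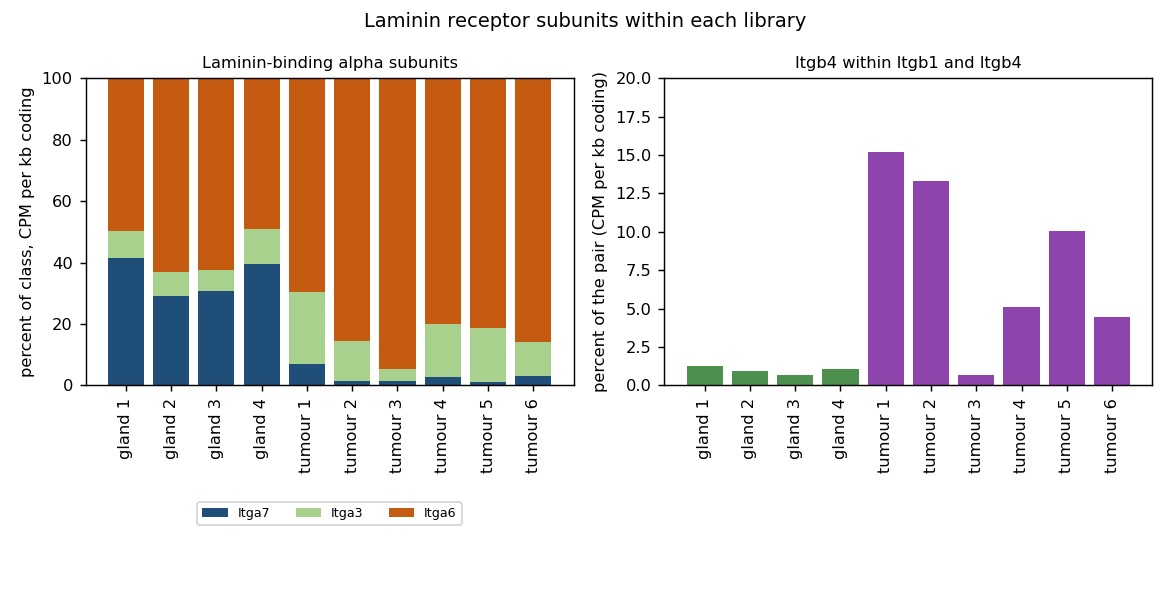
Shares within each library, in percent of CPM per kilobase of coding sequence, of the laminin-binding alpha subunits and of Itgb4 in the sum of Itgb1 and Itgb4. Itga7 drops from 29.2% to 41.6% in the glands to at most 7.06% in the tumours, and the Itgb4 share of tumour 3, 0.694%, lies inside the gland range.

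The basal and myoepithelial markers summed to 116 CPM in tumour 3, below the gland range of 174 to 257 CPM. They summed to 204 CPM in tumour 1 and to 658 to 4447 CPM in the other 4 tumours. Of these markers, 2 of 9 were called higher, 4 had a positive log2 fold change, and none was at 0 in any library. Their median log2 fold change was -0.12. In tumour 5, with the highest sum, Krt5, Krt14 and Krt17 were at 1222, 1857 and 1181 CPM. There Trp63 (105 CPM) and Myh11 (23.9 CPM) were also above every gland. Acta2, Mylk, Oxtr and Cnn1, at 38.5, 18.5, 0.726 and 0.800 CPM in tumour 5, were below every gland. In tumour 3 Krt5 was at 0.148 CPM and Trp63 at 0.965 CPM, below every gland, while Krt14 at 29.3 CPM and Krt17 at 56.8 CPM were above every gland. Tumour 2, with the second highest sum, had the highest Lamb3, Lama3 and Itgb4 levels. The part of basal cells in the levels of these genes was not tested.

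Of the 4 collagen-binding alpha subunits, Itga11 fell and none rose. Itga11, a fibroblast subunit, was at 22.5, 7.91, 5.90 and 3.56 CPM in the glands and at 2.06, 0.893, 0.297, 0.260, 0.986 and 3.26 CPM in the tumours. Every tumour was below every gland, although tumour 6 came close to gland 4. It fell by 2.96 ± 0.77 (log2, SE; edgeR adjusted p = 0.0285), and the call was lost without gland 1 (-2.19, adjusted p = 0.113), gland 2 (0.0562) or tumour 2 (0.0569) and with age as a covariate (-2.54, adjusted p = 0.0804). Itga1, expressed by smooth muscle and vessels, was at 30.1 to 39.6 CPM in the glands and at 3.22 to 29.2 CPM in the tumours, without overlap. It was not called (log2 fold change -1.23 ± 0.52, edgeR adjusted p = 0.127), except with limma-voom (-1.70, adjusted p = 0.0473). Itga10, a cartilage subunit, was at 0.234 to 0.890 CPM in the glands and up to 7.64 CPM in tumour 2 (2.58 ± 0.89, edgeR adjusted p = 0.0704). Itga2, a subunit of epithelia and platelets, was at 1.91 to 4.73 CPM in the glands and 1.03 to 11.3 CPM in the tumours, with a log2 fold change of -0.10 ± 0.68 whose sign was opposite under upper-quartile scaling (0.062).

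Of the 8 subunits of receptors for RGD motifs, the short peptide of fibronectin, vitronectin and latent TGF-beta, Itgb8 and Itga8 rose and none fell. Itgb8, whose product pairs with alphav and activates latent TGF-beta, was at 4.77, 4.81, 2.62 and 7.06 CPM in the glands and at 5.69, 46.5, 69.0, 32.0, 149 and 31.9 CPM in the tumours. Tumour 1 lay inside the gland range and tumours 2 to 6 were all above 30 CPM. Itgb8 rose by 3.53 ± 0.77 (log2, SE; edgeR adjusted p = 0.0153), and the call was lost without gland 1 (3.53, adjusted p = 0.0544). Of the beta subunits other than Itgb2 and Itgb2l, and per kilobase, Itgb8 took 0.685% to 2.08% in the glands. It took 3.18%, 11.9%, 11.2%, 6.40%, 26.8% and 6.31% in tumours 1 to 6. On this measure tumour 1 too was above every gland, although its Itgb8 level was not. Itgb1, the largest part of the sum, was at 44.9 CPM per kilobase in tumour 1, against 95.7 to 137 in the glands.

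Itga8, whose product with beta1 binds nephronectin and which marks smooth muscle and some fibroblasts, was at 3.31, 2.50, 1.67 and 3.31 CPM in the glands and at 3.77, 52.3, 41.7, 99.4, 1.82 and 30.1 CPM in the tumours. The tumours fell apart, with tumour 5 among the glands, tumour 1 just above them and the other 4 at 30.1 CPM or more. It rose by 3.82 ± 1.00 (log2, SE; edgeR adjusted p = 0.0291). The call was lost with limma-voom (adjusted p = 0.162) and without gland 1 (0.0806), gland 2 (0.0796), gland 3 (0.0776), gland 4 (0.0609) or tumour 4 (0.0501). Tumour 5 thus had the highest Itgb8 level and the lowest Itga8 level of the tumours. The pericyte and smooth muscle markers summed to 78.4, 119, 49.5, 72.4, 309 and 205 CPM in tumours 1 to 6, against 196 to 3884 CPM in the glands. The sum of tumour 5 was carried by Rgs5 at 250 CPM, and that of gland 4 by Des at 3419 CPM. In tumour 5 Pdgfrb, Cspg4, Kcnj8, Abcc9 and Des were below every gland, and Notch3 and Higd1b were inside the gland range. Of these 8 markers 4 fell and none rose, and only 1 had a positive log2 fold change. The part of these cells in the level of Itga8 was not tested.

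Itgb6, the epithelial partner of alphav, was at 2.80, 2.14, 1.56 and 42.9 CPM in the glands and at 7.06, 3.96, 4.70, 5.27, 3.96 and 6.80 CPM in the tumours. Gland 4 was the highest library by far, and all tumours were above glands 1 to 3. The log2 fold change was -1.22 ± 0.83 with all libraries (edgeR adjusted p = 0.314) and 1.21 without gland 4 (adjusted p = 0.0781), so its sign rested on 1 gland. The other 5 subunits were not called. Itgav, the shared alpha partner, was at 24.8 to 51.5 CPM in the glands and 22.5 to 73.5 CPM in the tumours (0.51 ± 0.35, edgeR adjusted p = 0.310). Itgb5, a vitronectin receptor subunit, was at 45.1 to 98.9 CPM in the glands and 26.7 to 93.1 CPM in the tumours, with a log2 fold change of -0.19 ± 0.38 that was 0.076 without gland 1. Itgb3, of platelets and vessels, was at 4.45 to 18.5 CPM in the glands and reached 43.5 CPM in tumour 4 (log2 fold change 0.05 ± 0.65, and -0.68 without tumour 4). Itga5, the fibronectin receptor, and Itga2b, of platelets, had log2 fold changes of -0.32 ± 0.67 and -1.42 ± 0.53, and Itga2b passed the test without tumour 1 (-1.87, edgeR adjusted p = 0.0215).

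Levels of the leukocyte subunits varied widely among the glands. Of 8 such subunits 6 were tested and 1, Itgb7, fell. Itgb7, the partner of alpha4 and alphaE on lymphocytes, was at 17.8, 89.4, 73.2 and 2.48 CPM in the glands and at 2.54, 2.68, 0.594, 1.68, 11 and 3.32 CPM in the tumours. Glands 2 and 3 were the highest libraries and gland 4 lay among the tumours. The log2 fold change was -3.65 ± 0.92 (SE; edgeR adjusted p = 0.0253), and -1.50 (adjusted p = 0.389) without glands 2 and 3, a choice made after these levels were seen. The call was also lost without gland 2 (0.0734), gland 3 (0.0602), tumour 2 (0.0519) or tumour 4 (0.0530) alone, without tumours 1 and 6 (0.0598), with limma-voom (0.0521) and with age as a covariate (0.0602). T and NK cell markers summed to 21.9, 641, 529 and 3.43 CPM in glands 1 to 4, with Cd3e and Cd8a at 0 in gland 4, and to 6.26 to 95.2 CPM in the tumours. B cell markers summed to 13.2, 415, 446 and 1.78 CPM in the glands, with Blk at 0 in gland 4, and to 3.47 to 144 CPM in the tumours. Tumour 5 had the highest lymphocyte sums and the highest Itgb7 level of the tumours, and the part of lymphocytes in the difference was not tested.

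Itgb2, the beta subunit common to leukocyte integrins, was at 19.8, 63.4, 45.2 and 2.16 CPM in the glands and at 8.43, 3.45, 3.44, 3.0, 20.4 and 55.8 CPM in the tumours. Glands 2 and 3 and tumour 6 were high, and the log2 fold change was -1.05 ± 0.96 with all libraries (edgeR adjusted p = 0.453) and 0.50 without glands 2 and 3. Itgal, the lymphocyte partner of Itgb2, was at 4.31, 60.6, 40.1 and 1.14 CPM in the glands and 0.841 to 12.9 CPM in the tumours, and its log2 fold change of -2.10 ± 1.02 became 1.15 without glands 2 and 3. Itgam, the subunit of macrophages and neutrophils, was highest in tumour 6, at 38.6 CPM, and at 1.47 to 8.64 CPM in the other tumours against 6.61 to 22.7 CPM in the glands. It was called without tumour 6 (-1.89, edgeR adjusted p = 0.0364) and not with it (-0.70, adjusted p = 0.534). Itgax, a subunit of dendritic cells and macrophages, was at 0.954 to 5.53 CPM in the glands and reached 37.8 and 35.0 CPM in tumours 5 and 6 (2.36 ± 0.85, edgeR adjusted p = 0.0797). Itgae, of lymphocytes within epithelia, was highest in tumour 5, at 16.7 CPM, and had a log2 fold change of -0.25 ± 1.03, with the opposite sign without gland 2 (0.34). Macrophage markers summed to 279 to 906 CPM in the glands and 463 to 1421 CPM in the tumours, highest in tumour 6, with 1 of 9 called higher and none at 0 in any library. The sums of tumours 2, 3 and 4 were carried largely by Cd14, at 232, 1061 and 510 CPM, against 23.3 to 51.6 CPM in the glands. Of the 9 markers, 4 had a positive log2 fold change.

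**Figure D5:**
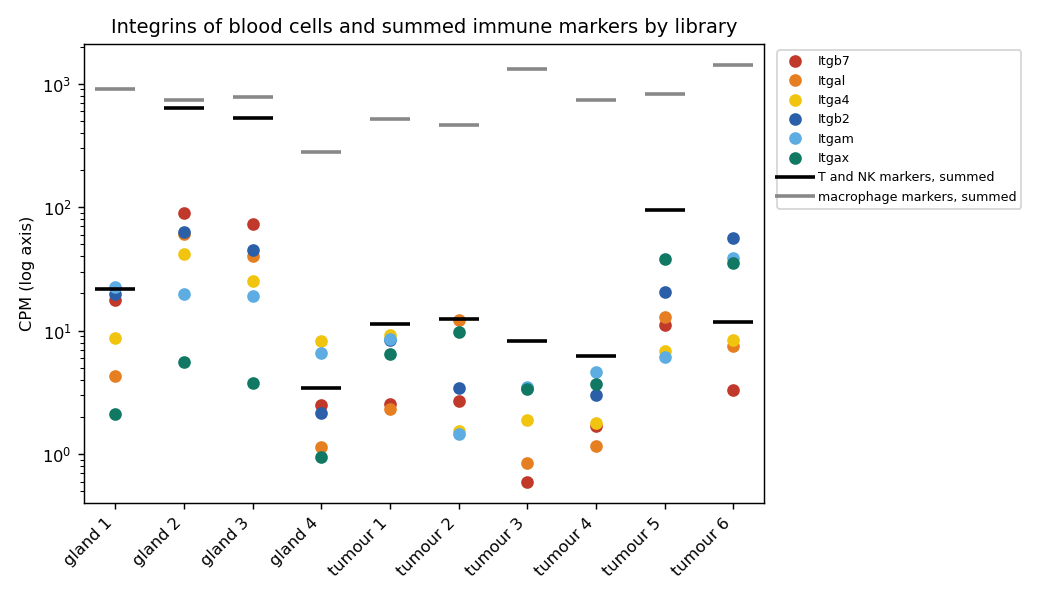
Levels of 6 integrin subunits of blood cells in each of the 10 libraries, in TMM-scaled CPM on a log axis, with bars for the summed T and NK cell markers (black) and macrophage markers (grey). Itgb7 and Itgal are highest in glands 2 and 3, while Itgax is highest in tumours 5 and 6, at 37.8 and 35.0 CPM. In tumours 2, 3 and 4 the largest of the summed macrophage markers is Cd14, at 232, 1061 and 510 CPM.

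Itga4 and Itga9 bind VCAM-1, fibronectin and tenascin, and neither was called. Itga4, which pairs with beta7 or beta1 on lymphocytes, was at 8.79, 42.1, 25.2 and 8.20 CPM in the glands and at 1.53 to 9.25 CPM in the tumours (log2 fold change -2.09 ± 0.67, edgeR adjusted p = 0.0547). It was called without gland 4 (adjusted p = 0.0436), tumour 1 (0.0448) or tumour 6 (0.0448). Itga9 was at 8.90 to 15.5 CPM in the glands and 3.69 to 20.6 CPM in the tumours, with a log2 fold change of -0.17 ± 0.44 that was 0.022 under upper-quartile scaling. Itgb3bp, the centromere protein that shares the name pattern, was at 6.45 to 8.46 CPM in the glands and 22.9 CPM in tumour 3, against 3.37 to 8.55 CPM in the other tumours (0.26 ± 0.50, edgeR adjusted p = 0.732).

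Per kilobase of coding sequence, Itgb1 had the highest level of the 39 genes in both groups, at 114 ± 17.5 CPM per kilobase in the glands (SD, n = 4) and 133 ± 59.3 in the tumours (SD, n = 6). In the glands Lamc1, Itgb5 and Lamb1 came next, at means of 35.2, 26.6 and 21.4 CPM per kilobase. In the tumours Itga6, Itgb8 and Itgb5 came next, at means of 32.3, 24.2 and 23.2 CPM per kilobase. The SD of Itgb8 between tumours was 21.9, and the order of these 3 genes was not tested. Itgb8 had been the 25th gene in order in the glands, at 2.09 CPM per kilobase, and was the third in the tumours.

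Genes that work with these receptors and ligands were taken from lists of hemidesmosome parts, other basement membrane proteins, other laminin receptors, further integrin ligands and the adhesion complex inside the cell. Of 64 tested, 9 rose (14.1%, against 6.89% of all genes) and 13 fell (20.3%, against 8.19%), with a median log2 fold change of -0.18. Of 6 hemidesmosome genes, Krt14, the basal keratin that is also one of the basal markers above, rose by 5.32 ± 1.10, from 7.91 to 19.9 CPM in the glands to 29.3 to 1857 CPM in the tumours, without overlap (adjusted p = 0.0129). The plakins Dst and Plec, which link integrin beta4 to keratin and have muscle forms, fell by 1.64 ± 0.44 and 1.60 ± 0.49 (adjusted p = 0.0309 and 0.0482). Both were highest in gland 4, the muscle-rich library, at 240 and 203 CPM, and neither call held without it (-1.04, adjusted p = 0.0821, and -1.12, adjusted p = 0.113). Of the 3 called genes of this list, 1 moved in the direction of Itgb4 and 2 moved against it. The Dst call was lost without 4 of the 10 libraries in turn and the Plec call without 8. Col17a1, the transmembrane collagen of hemidesmosomes, was at 1.67 to 4.19 CPM in the glands and at 3.15, 120, 0.0247, 10.2, 9.80 and 6.75 CPM in tumours 1 to 6, and was not called (3.33 ± 1.46, adjusted p = 0.137). It was lowest in tumour 3 and highest in tumour 2, as Lama3 was lowest in tumour 3 and highest in tumour 2. All adjusted p-values here are from edgeR.

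Of 11 other basement membrane genes, the nidogens Nid1 and Nid2, which bridge laminin to collagen IV, and Col4a2 fell and Frem2 rose. Nid1 was at 484, 335, 302 and 162 CPM in the glands and at 51.8, 2.84, 10.7, 18.3, 31.8 and 117 CPM in the tumours. The groups did not overlap, tumour 6 was again the highest tumour and gland 4 the lowest gland, and the fall was 3.05 ± 0.80 (log2, SE; edgeR adjusted p = 0.0288). Nid2 and Col4a2 fell by 2.27 ± 0.59 and 1.77 ± 0.45, and Frem2, of embryonic basement membranes, rose by 3.09 ± 0.94 from at most 1.08 CPM in the glands (edgeR adjusted p = 0.0282, 0.0269 and 0.0472). The Nid1, Nid2, Col4a2 and Frem2 calls were all lost without gland 1, with adjusted p-values of 0.0814, 0.0842, 0.0868 and 0.134 by edgeR, and each was lost for at least 4 of the 10 libraries when these were left out in turn. Of 5 other laminin receptors, the syndecans Sdc1 and Sdc4 rose by 2.61 ± 0.66 and 1.99 ± 0.45 (edgeR adjusted p = 0.0258 and 0.0171), and none fell. Sdc4 was above every gland in all 6 tumours and Sdc1 in 5. Both calls were lost without gland 1 (0.0649 and 0.0581) or gland 2 (0.0727 and 0.0536), and that of Sdc1 also without gland 3 (0.0670) or gland 4 (0.0670).

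Of 12 tested further ligands, Cdh1, Spp1 and Tnc rose and Vtn fell. E-cadherin (Cdh1), which lymphocyte integrin alphaEbeta7 binds, is also one of the luminal epithelial markers above. Cdh1 rose by 2.49 ± 0.32 and was above every gland in all 6 tumours (edgeR adjusted p = 0.00255). Osteopontin (Spp1), a ligand of alphav and alpha9 integrins, was at 3.61 to 12.2 CPM in the glands and at 151 to 9871 CPM in the tumours, a rise of 9.0 ± 1.67 (log2, SE; edgeR adjusted p = 0.00879). Tenascin-C (Tnc), a ligand of alpha8, alpha9 and alphav integrins, rose by 3.98 ± 0.81 and was above every gland in 5 tumours (edgeR adjusted p = 0.0118). Vitronectin (Vtn), a ligand of alphav integrins, fell by 3.90 ± 1.03 (edgeR adjusted p = 0.0295), and leaving out any 1 gland, or tumour 2, ended the call (adjusted p = 0.0512 to 0.0633). Nephronectin (Npnt), the ligand of Itga8, was at 1.23 to 13.9 CPM in the glands and 2.82 to 37.3 CPM in the tumours and was not called (1.89 ± 0.91, edgeR adjusted p = 0.166).

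Of 30 genes of the adhesion complex inside the cell, 2 rose (6.67%, against 6.89% of all genes) and 7 fell (23.3%, against 8.19%). Kindlin-1 (Fermt1), the kindlin of epithelia, was at 2.62 to 7.31 CPM in the glands and 11.7 to 53.9 CPM in the tumours, and rose by 3.05 ± 0.56 (log2, SE; edgeR adjusted p = 0.00864). Tns3, a tensin, rose by 1.77 ± 0.49 (edgeR adjusted p = 0.0359), with a call that was lost without any 1 library except tumours 3 and 4 (adjusted p up to 0.103, without gland 1). Itgb1bp1, which encodes the beta1 tail-binding protein ICAP-1, fell by 1.31 ± 0.24 and Kank2, a talin-binding protein, by 1.95 ± 0.36, and every tumour was below every gland for both (edgeR adjusted p = 0.00874 and 0.00879). Talin-1 (Tln1), which switches integrins on, fell by 1.54 ± 0.36, and Lims2, a PINCH protein, by 3.75 ± 0.90 (edgeR adjusted p = 0.0207 and 0.0218). The Tln1 call was lost without gland 1 (0.0582) or gland 2 (0.0663) and the Lims2 call without gland 1 (0.0671). The calls of Fermt1, Itgb1bp1 and Kank2 held when any 1 library was left out. With age as a covariate the calls of Plec (edgeR adjusted p = 0.0678), Frem2 (0.0691), Col4a2 (0.0818), Nid2 (0.0678), Nid1 (0.0652), Tns3 (0.0632) and Tln1 (0.0620) were lost.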

How the data were processed

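PolyA RNA of whole tissue was sequenced from libraries made with a NEBNext Ultra kit, per the labels' protocols. The authors deposited whole-number read counts per gene symbol, in 1 table of 38279 symbols and 10 libraries. Salmon 1.2.0, DESeq and mm9 appear in the submitters' processing notes, with no role stated for any of them. The step from transcripts to genes is not known, and were the counts rounded Salmon estimates, reads of similar genes would have been divided by its model. Of 13 samples, 3 of purified epithelium were not analysed here.

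Groups came from the labels. Counts were tested with edgeR 4.0.16 (R 4.3.3): filterByExpr, TMM scaling, quasi-likelihood F test without covariates, Benjamini-Hochberg adjustment over 20101 genes, threshold 0.05. The standard error is the log2 fold change over the square root of F. TMM factors were 0.422 in tumour 1, 0.580 in gland 4 and 0.889 to 1.41 elsewhere. The biological coefficient of variation was 0.707, so moderate differences can miss the threshold. Whether each library is a separate animal is not stated, and the p-values reflect only how these libraries vary. Sequencing runs are not named in the labels. The identifiers of glands 1 to 3 differ in form from those of gland 4 and all tumours, and whether a run differed with them is not known. A run that followed the form would part glands 1 to 3 from all tumours, with gland 4 on the side of the tumours. The part of runs in the differences was not tested. No 2 libraries were copies (lowest chi-square per degree of freedom over pairs 27.8, glands 2 and 3).

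Shares and levels between genes used CPM per kilobase of the longest coding sequence in GENCODE vM21, since no protein table was at hand. A coding length was found for all 39 members. Of all symbols in the count table, 97.2% were in the reference list of gene names. Promoters came from RefSeq on GRCm38.p6, not the submitters' build. The GC box was added after the other motifs gave no match in the promoters of called members. The members and lists were chosen with earlier results of these data known. Every member is in the counts, and 1 member and 1 marker are not reported here by name. Levels in each library were given for up to 4 called members of each role and direction and for Itgb1, Itgb4, Itga6, Itga3, Itgb6 and Itgb2, of partner lists up to 4 called genes in each direction were named, and marker lists were given as sums. Lamb3, Lama3, Itgal, Itga4, Col17a1 and Npnt were given in more detail, and Itga2b, Itgam and others with a left-out library, after their values were seen. The alternatives changed the scaling (upper-quartile, RLE), the test (limma-voom with limma 3.58.1, DESeq2 1.42.0) and the filter (none, or at least 1 CPM in 4 libraries), added age as a covariate, and left out each library in turn, tumours 1 and 6, these and gland 4, or, added with the data in view, glands 2 and 3.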

Additional observations from a re-analysis of the deposited data

Results flagged for a closer look

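Libraries that stood apart from the rest of their group were looked for with Dixon's test in 74 groups of levels and 38 groups of shares, and 24 were found. Chance gives about 1 in 20 groups where values are independent and normally spread. Levels were taken on the plain CPM scale, where high values spread more, and shares of a class depend on each other. The 24 therefore cannot be set against that rate. In levels (CPM), the glands gave 2, both in gland 4: Itga2 at 1.91 and Itgb6 at 42.9. Tumour 6 stood apart as the highest tumour for Itga5 (16.9), Itgam (38.6), Itgb2 (55.8), Lamb1 (47.8) and Lamc1 (76.8). Tumour 5 was the highest for Itga2 (11.3), Itgae (16.7) and Itgb7 (11). Tumour 1 was the highest for Itga2b (3.91), tumour 2 for Lamb3 (75.7), tumour 3 for Itgb3bp (22.9) and tumour 4 for Itgb3 (43.5).

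In shares within a library, gland 4 stood apart from the other glands in 5 chains or subunits. Its share of Lama2 among alpha chains was 49.9% and of Lama4 37.5%. Among beta chains it had 26.5% Lamb1 and 68.2% Lamb2. Itgb6 took 12.3% of its beta subunits. This was the library with 145587 CPM of muscle markers, whose part in these shares was not tested. Among tumours, the Lamb1 share was 4.86% in tumour 2, the Itgb3 share 8.48% in tumour 4, the Itgb6 share 3.85% in tumour 1, the Itgb8 share 26.8% in tumour 5 and the Itga7 share among laminin-binding alpha subunits 7.06% in tumour 1.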

How the results depend on the processing

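No paired analysis was possible because the labels give the groups no shared replicate numbers. All 12 called integrin and laminin genes kept their direction under the 20 alternatives, and 4 of them (Itga7, Itgb4, Lamb1 and Lamc1) stayed called without any 1 library. Called genes over the whole table numbered 3030, and 5252 with DESeq2, 1899 with age as a covariate, 4640 without tumours 1 and 6 and gland 4, 1010 without glands 2 and 3, and 1053 to 3521 without 1 library, lowest without gland 1. The 4 members called higher became 9 with DESeq2, 2 with limma-voom, 0 without glands 2 and 3, and 1 to 6 without 1 library. Those added with DESeq2 were Itga3, Itga6, Itga10, Itgax and Lamb3. The 8 called lower became 4 with age as a covariate, 2 without glands 2 and 3, and 4 to 9 without 1 library. The 9 partner genes called higher became 14 with DESeq2, 1 without glands 2 and 3, and 5 to 11 without 1 library, and the 13 called lower became 5 with age, 20 without tumours 1 and 6 and gland 4, 3 without glands 2 and 3, and 2 to 16 without 1 library. Fewer libraries were fitted where libraries were left out, and for the other settings the cause was not tested.

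Signs changed in 10 members that were not called. Log2 fold changes were, for Itga2, 0.062 with upper-quartile scaling, 0.10 without tumours 1 and 6, 0.19 without glands 2 and 3 and -0.88 to 0.090 without 1 library. They were 0.022 for Itga9 with upper-quartile scaling (-0.42 to 0.019 without 1 library), 1.15 for Itgal and 0.50 for Itgb2 without glands 2 and 3, and -0.28 for Itgb3 with limma-voom and -0.18 without tumours 1 and 6 and gland 4 (-0.68 to 0.24 without 1 library). Itgae gave 0.14 without tumours 1 and 6 and 0.99 without glands 2 and 3 (-2.05 to 0.34 without 1 library), and Itgb6 0.38 with limma-voom and 0.93 without tumours 1 and 6 and gland 4 (-1.58 to 1.21). Lama1 gave -0.57 with limma-voom, -0.50 without tumours 1 and 6 and -0.59 without these and gland 4 (-0.18 to 0.58 without 1 library). Without 1 library Itgb3bp ranged from -0.29 to 0.39 and Itgb5 from -0.42 to 0.076. Without division by length, an alternative added with the data in view, the median share of Lamb3 among beta chains was 3.62% in glands and 28.1% in tumours, against 5.53% and 37.8%. Genes near 1 CPM, such as Lama1 and Itga10, rest on few counts in some libraries.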
